A study of Homo sapiens with 15 samples.

Results

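The 10 genes described here encode growth factors of the epidermal growth factor (EGF) family, their receptors and inhibitors of those receptors, and were taken by symbol from the 43388 gene symbols counted in A549 cells. They comprise 5 ligands (EREG, AREG, HBEGF, TGFA and NRG1), 3 receptors (EGFR, ERBB2 and ERBB3) and 2 inhibitors of receptor signalling (ERRFI1 and LRIG1). RNA-seq was performed on A549, an established line of wild-type label derived from a human lung adenocarcinoma and used as a model of alveolar epithelium. Cells were kept for 72 hours in hyperoxia (95% oxygen) or normoxia (21% oxygen). Pretreatment was 24 hours with 1e-05 mM ATRA (all-trans retinoic acid, which cells make from vitamin A) or its ethanol vehicle. Per the methods, the oxygen exposure itself was also run with or without ATRA. Further cultures carried neither label. Each oxygen exposure had 2 libraries with neither ATRA nor vehicle, 2 with vehicle and 3 with ATRA, which gave 14 libraries with a group. The labels do not say that libraries of a group came from separate cultures, so p-values measure the spread between libraries, which may be technical. The line is 1 cancer line of adult origin, and all groups share it.

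EGF-family ligands are made as membrane-anchored precursors, are cut free by proteases such as ADAM17, and bind receptor tyrosine kinases that act in pairs. Epiregulin, amphiregulin, heparin-binding EGF and TGF-alpha bind EGFR, whereas neuregulin-1 binds ERBB3 and ERBB4. ERBB2 has no ligand of its own and ERBB3 has little kinase activity, so both signal through partners, and in lung epithelium the family is known for its part in growth and wound repair.

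The 14 libraries held between 2642377 and 5605072 reads on genes, with a median of 4038112. The smallest count distinguished from 0 here, 3 reads, corresponded to 0.535 to 1.14 CPM (reads of a gene per 1000000 reads on genes), a limit that covers counting error only. The first hyperoxia library with neither addition stood apart, with 12657 genes detected against at least 16465 in each of the 10 vehicle and ATRA libraries. The oxygen comparison with neither addition, and ATRA set against these cells, are therefore given with and without it, for the genes called and the pathway counts. The epithelial keratins and adhesion genes EPCAM, KRT8, KRT18, KRT19, KRT7 and CDH1 summed to 3317 to 7001 CPM in hyperoxia and to 7221 to 11879 CPM in normoxia. With vehicle, 4 of these 6 genes were called lower in hyperoxia, where 8.81% of the 14957 genes tested were. With ATRA in hyperoxia 5 of 6 were called higher than with vehicle, where 1.52% of genes were. None of the 6 was called with ATRA in normoxia. Against the hyperoxia libraries with neither addition, less the library that stood apart, none of the 6 passed (edgeR adjusted p between 0.0771 and 0.994). Their part in the results below was not tested. Among markers of other cell types, the fibroblast list summed to at most 5.36 CPM and the endothelial list to at most 6.26 CPM. The leukocyte list summed to 60.7 to 103 CPM in hyperoxia and to 20.4 to 48.1 CPM in normoxia. Most of it came from CD68, a lysosomal protein gene called higher in hyperoxia with vehicle (log2 fold change 1.63), ATRA (1.53) and neither addition (2.001, and 1.797 without the library that stood apart). Of the other leukocyte markers, CD14 had 0 to 52 reads in a library and a lower mean in hyperoxia in each treatment. Its log2 fold change was -1.32 with vehicle (edgeR adjusted p = 0.365) and -1.58 with ATRA (0.0596). With neither addition CD14 was called lower (-6.97), a call lost without the library that stood apart. LYZ had at most 5 reads in a library and PTPRC at most 1, and CD3E and MS4A1 had none.

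The oxygen response of the family was examined first, in cells that had received vehicle. Hyperoxia raised 4 of the 5 ligands, the receptor EGFR and the inhibitor ERRFI1, and lowered ERBB2. The rise was 4.62-fold for EREG, 2.66-fold for TGFA, 2.14-fold for NRG1 and 1.95-fold for EGFR. Thus 6 of the 10 genes were called higher, where 8.68% of the 14957 genes tested were called higher, and 1 was called lower, where 8.81% were. The median of the 10 log2 fold changes was 0.94, and that of all genes tested was 0.01. A gene was called differentially expressed (DE) at an adjusted p under 0.05, in edgeR's quasi-likelihood fit, with the Benjamini-Hochberg adjustment taken over every gene tested. Levels below are CPM after normalisation for library composition. In RNA from whole cultures, a change in the number of expressing cells and a change in RNA per cell cannot be told apart.

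**Figure D1:**
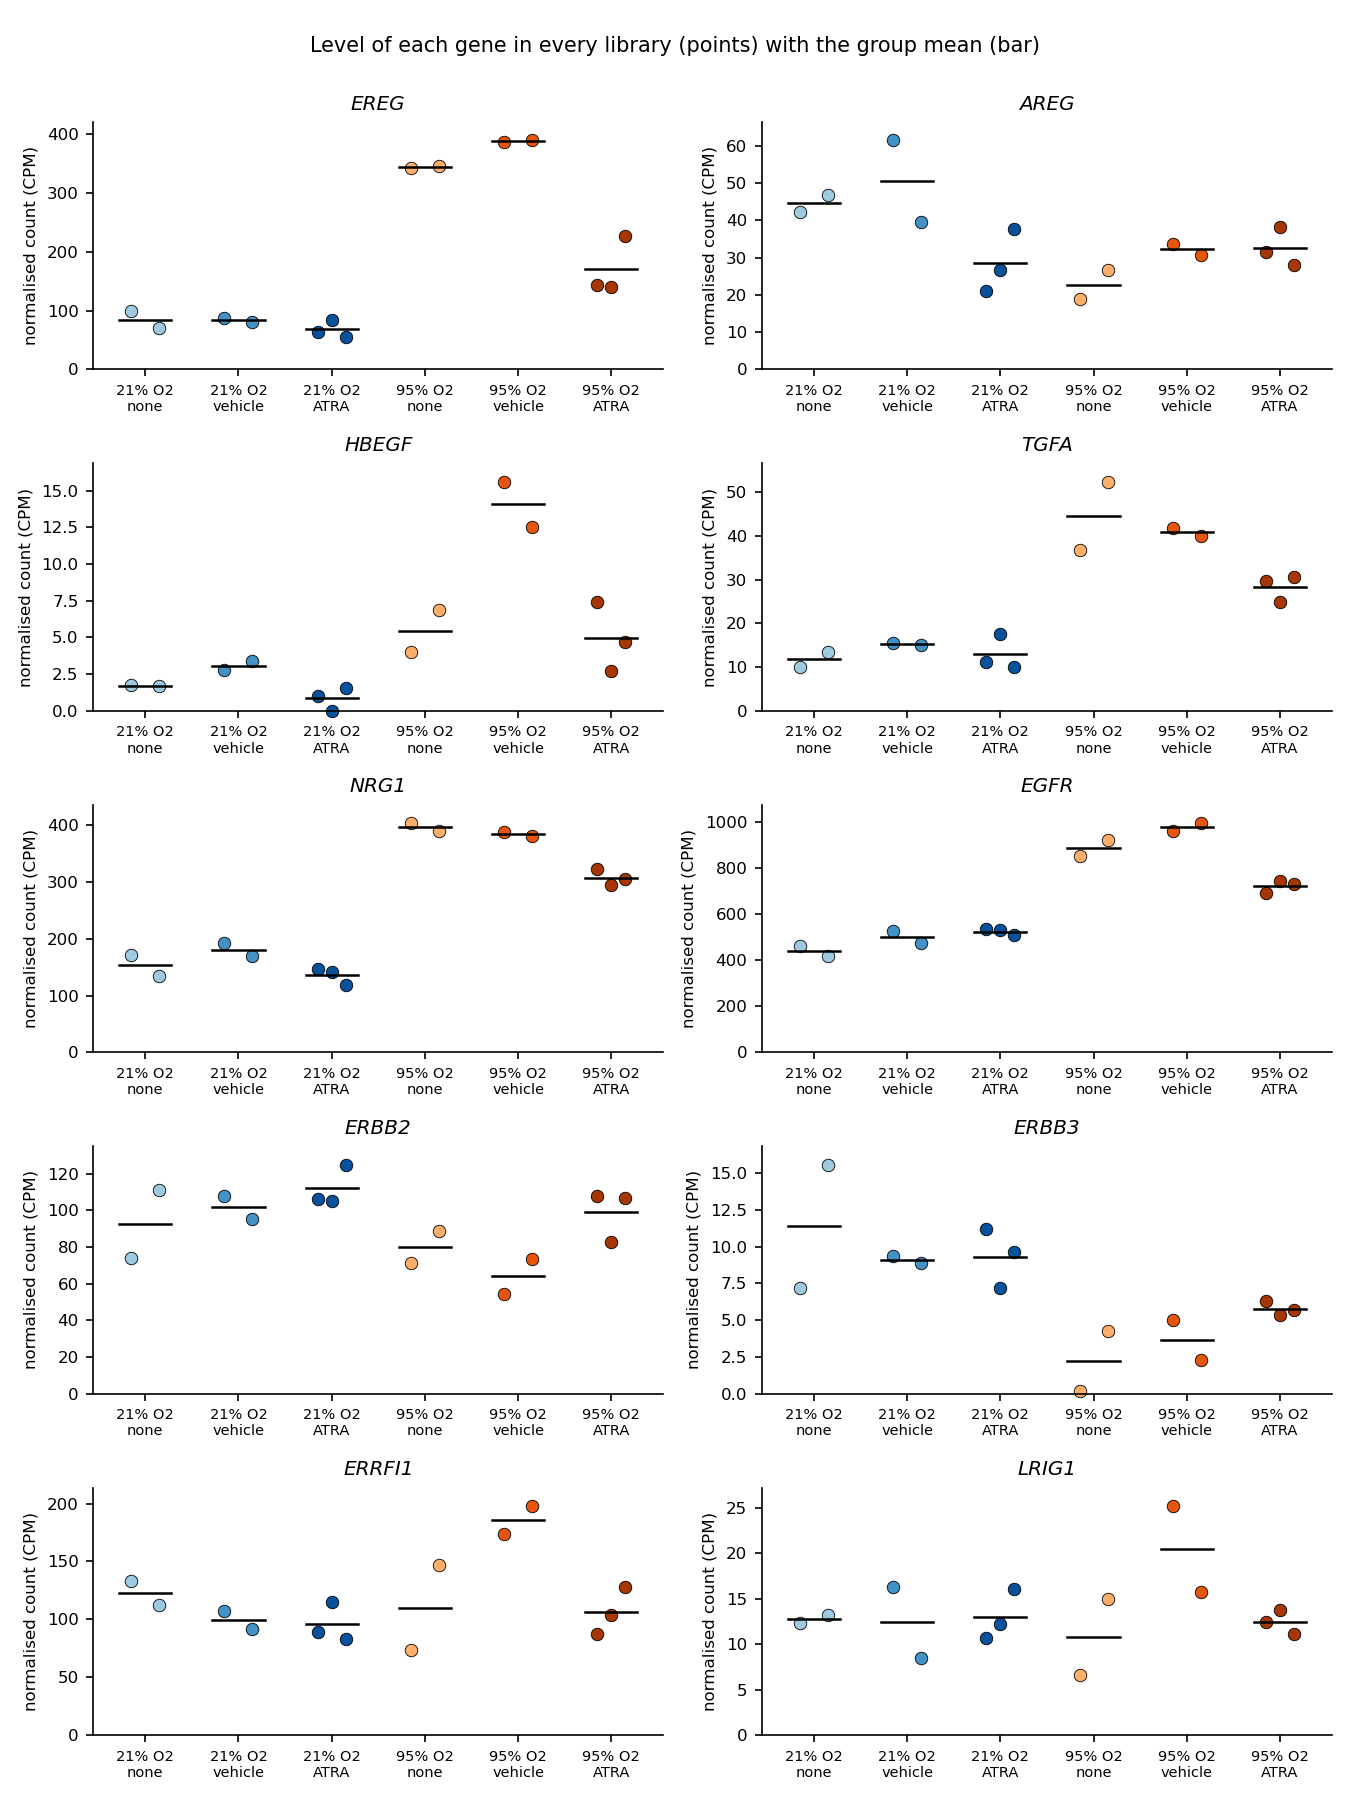
Level of each of the 10 genes in every library (vertical axis, normalised CPM, starting at 0) by oxygen exposure and treatment (horizontal axis). Points are libraries (2 or 3 per group) and bars are group means. EREG, TGFA, NRG1 and EGFR were higher in all 7 hyperoxia libraries than in any of the 7 normoxia libraries, and ERBB3 was lower.

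EREG encodes epiregulin, a ligand of EGFR and ERBB4, and lies on chromosome 4 from 74365145 to 74388749 (plus strand, GRCh38.p14, RefSeq). With vehicle it measured 387 and 389 CPM in hyperoxia and 87.6 and 80.7 CPM in normoxia. With neither addition it measured 342 and 345 CPM in hyperoxia and 98.9 and 70.5 CPM in normoxia. The ATRA libraries measured 144, 140 and 227 CPM in hyperoxia and 64.2, 84.3 and 55.4 CPM in normoxia. Every hyperoxia library lay above every normoxia library. From high to low, hyperoxia with vehicle, hyperoxia with neither addition and hyperoxia with ATRA did not overlap, whereas the 3 normoxia groups overlapped one another. The log2 fold change of hyperoxia over normoxia was 2.21 (SE 0.201, adjusted p = 1.41e-07) with vehicle, 2.02 (SE 0.229, adjusted p = 3.44e-05) with neither addition and 1.33 (SE 0.17, adjusted p = 6.92e-06) with ATRA, all by edgeR.

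AREG encodes amphiregulin, a ligand of EGFR. It is the neighbour of EREG on the same strand of chromosome 4, from 74445136 to 74455005, and 56386 bases separate the pair. With vehicle AREG measured 33.7 and 30.7 CPM in hyperoxia and 61.5 and 39.7 CPM in normoxia, and with neither addition 18.8 and 26.7 CPM in hyperoxia and 42.3 and 46.8 CPM in normoxia. The ATRA libraries held 31.4, 38.3 and 27.9 CPM in hyperoxia and 21.1, 26.8 and 37.7 CPM in normoxia. Hyperoxia libraries lay below normoxia libraries in cells without ATRA, and the ATRA libraries of both exposures overlapped. With neither addition AREG was called lower in hyperoxia, at a log2 fold change of -0.98 (SE 0.317, edgeR adjusted p = 0.0497). That call was lost without the library that stood apart, where the log2 fold change was -0.74 and the edgeR adjusted p = 0.206, and without the first (0.14) or second (0.177) normoxia library. With vehicle the log2 fold change was -0.64 (SE 0.274, edgeR adjusted p = 0.122), which did not pass. It passed with the vehicle groups fitted alone (-0.63, edgeR adjusted p = 0.0127) and with vehicle and no-vehicle libraries joined (-0.79, 0.0175). Leaving out the first or second normoxia vehicle library moved it to -0.34 (edgeR adjusted p = 0.689) or -0.96 (0.0697).

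The 250 bases before the RefSeq start site of each of these neighbouring genes are shown because the pair moved differently with oxygen, with matches to 3 motifs in capitals (GRCh38.p14, plus strand, chr4:74364895-74365144 for EREG and chr4:74444886-74445135 for AREG). Both strands of each window were searched for a TATA box (TATAAA), a cAMP response element (TGACGTCA), an AP-1 site (TGANTCA), a nuclear receptor half-site (AGGTCA) and an NF-kB site.
EREG: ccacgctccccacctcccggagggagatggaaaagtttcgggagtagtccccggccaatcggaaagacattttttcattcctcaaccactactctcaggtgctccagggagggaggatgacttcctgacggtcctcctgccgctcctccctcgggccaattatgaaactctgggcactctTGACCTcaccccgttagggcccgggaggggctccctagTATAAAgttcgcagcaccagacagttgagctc
AREG: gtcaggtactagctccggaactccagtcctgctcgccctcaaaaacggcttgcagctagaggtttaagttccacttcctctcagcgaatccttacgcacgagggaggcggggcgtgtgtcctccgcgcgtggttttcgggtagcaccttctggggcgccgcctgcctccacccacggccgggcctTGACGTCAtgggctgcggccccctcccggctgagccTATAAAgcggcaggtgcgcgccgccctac
Both windows held a TATA box, at -32 in EREG and -29 in AREG from the start site, as did 10.7% of 35116 RefSeq windows of the same length. The AREG window held a cAMP response element at -65, found in 1.65% of windows. The EREG window held a nuclear receptor half-site at -70, written on the opposite strand as TGACCT, found in 12.1% of windows. Neither window held the AP-1 letters, present in 6.57% of windows, or the NF-kB letters, present in 9.96%. RefSeq windows were given for 8 of the 10 genes. A match is a description of letters, and binding was not measured.

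The balance between the neighbours was followed as the ratio of EREG to AREG, each per kilobase of transcript. With vehicle the ratio was 3.07 and 3.39 in hyperoxia and 0.381 and 0.543 in normoxia. With neither addition it was 4.87 and 3.45 in hyperoxia and 0.625 and 0.403 in normoxia. With ATRA it was 1.23, 0.979 and 2.18 in hyperoxia and 0.812, 0.839 and 0.393 in normoxia. EREG was the lower of the pair in every normoxia library and the higher in 6 of 7 hyperoxia libraries, and the exposures did not overlap. The ratio was computed after the levels were seen and carries no test.

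**Figure D2:**
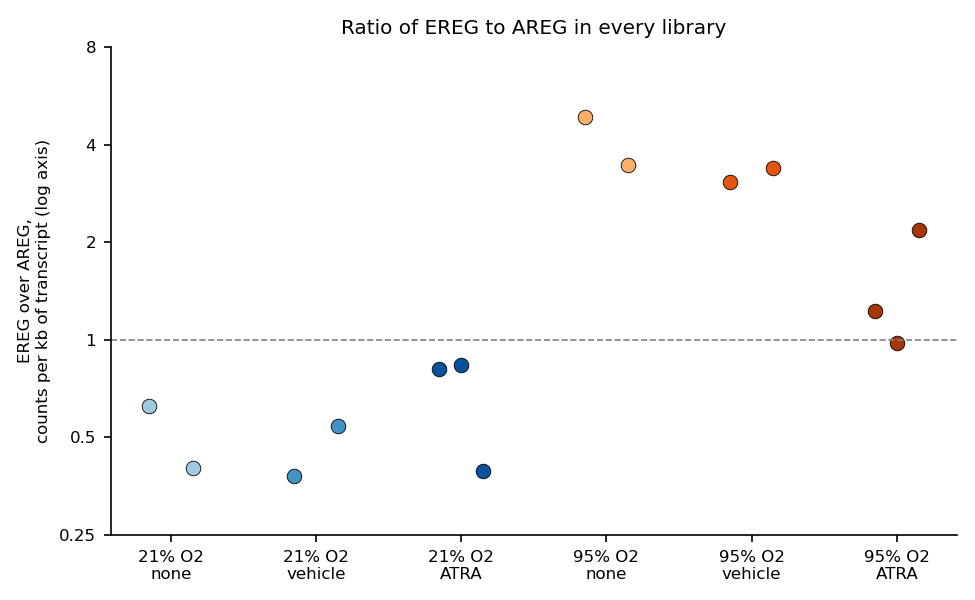
Ratio of EREG to AREG per kilobase of transcript (vertical axis, logarithmic; dashed line at 1) in each library (points) by oxygen exposure and treatment (horizontal axis). Normoxia libraries span 0.381 to 0.839 and hyperoxia libraries 0.979 to 4.87, with the hyperoxia libraries given ATRA lowest of the 3 hyperoxia groups.

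TGFA, which encodes TGF-alpha, another ligand of EGFR, measured 41.9 and 39.9 CPM in hyperoxia and 15.6 and 15.1 CPM in normoxia with vehicle. With neither addition it measured 36.8 and 52.4 CPM in hyperoxia and 10.1 and 13.4 CPM in normoxia, and with ATRA 29.6, 24.9 and 30.7 CPM against 11.2, 17.5 and 10.1 CPM. The exposures did not overlap in any treatment. The log2 fold change was 1.41 (SE 0.289, adjusted p = 0.00142) with vehicle, 1.92 (SE 0.33, adjusted p = 0.00119) with neither addition and 1.15 (SE 0.246, adjusted p = 0.00164) with ATRA, by edgeR.

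NRG1, which encodes neuregulin-1, was the ligand with the narrowest spread of oxygen effects over treatments. It measured 389 and 381 CPM in hyperoxia and 192 and 169 CPM in normoxia with vehicle, and 404 and 390 CPM against 172 and 135 CPM with neither addition. With ATRA it measured 323, 295 and 305 CPM in hyperoxia and 146, 141 and 119 CPM in normoxia. Again no hyperoxia library overlapped a normoxia library. The log2 fold change was 1.10 (SE 0.134, adjusted p = 5.11e-06) with vehicle, 1.37 (SE 0.142, adjusted p = 1.31e-05) with neither addition and 1.19 (SE 0.112, adjusted p = 1.12e-07) with ATRA, by edgeR.

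HBEGF, which encodes heparin-binding EGF, was the least abundant ligand, with 0 to 71 reads a library. With vehicle it measured 15.6 and 12.5 CPM in hyperoxia and 2.78 and 3.37 CPM in normoxia, and with neither addition 3.99 and 6.84 CPM against 1.76 and 1.68 CPM. With ATRA it measured 7.39, 2.68 and 4.72 CPM in hyperoxia and 1.04, 0 and 1.56 CPM in normoxia, where a count of 0 allows up to 0.948 CPM in that library. Within each treatment the hyperoxia libraries lay above the normoxia libraries. The log2 fold change was 2.17 (SE 0.728, edgeR adjusted p = 0.0457) with vehicle and 2.45 (SE 0.748, edgeR adjusted p = 0.0153) with ATRA. The difference with neither addition did not pass (edgeR adjusted p = 0.256, and 0.175 without the library that stood apart). The vehicle call was lost when any 1 of the 4 vehicle libraries was left out (edgeR adjusted p between 0.169 and 0.278), without the first normoxia ATRA library (0.0573) or the third hyperoxia ATRA library (0.0521), and in the fit of 14 libraries (0.176). With ATRA the edgeR adjusted p was 0.0611 in the fit of 14 libraries and 0.0657 with the ATRA libraries alone.

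Among the receptors, EGFR, which binds most of these ligands, had the most reads of the 10 genes. It measured 960 and 996 CPM in hyperoxia and 529 and 474 CPM in normoxia with vehicle. With neither addition it measured 855 and 924 CPM against 462 and 417 CPM, and with ATRA 691, 745 and 732 CPM against 534, 530 and 510 CPM. The exposures did not overlap in any treatment, and the hyperoxia libraries given ATRA were the lowest of the hyperoxia libraries. The log2 fold change was 0.96 (SE 0.121, adjusted p = 6.69e-06) with vehicle, 1.02 (SE 0.115, adjusted p = 2.65e-05) with neither addition and 0.46 (SE 0.099, adjusted p = 0.00168) with ATRA, by edgeR.

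ERBB2, the preferred partner of the other receptors, measured 54.6 and 73.4 CPM in hyperoxia and 108 and 95.2 CPM in normoxia with vehicle. It was called lower in hyperoxia there, at a log2 fold change of -0.65 (SE 0.182, edgeR adjusted p = 0.0149). The call was lost without the first hyperoxia vehicle library (-0.49, edgeR adjusted p = 0.222) and without the first normoxia vehicle library (-0.60, edgeR adjusted p = 0.116). It was also lost in the fit of 14 libraries (edgeR adjusted p = 0.078) and with vehicle and no-vehicle libraries joined (0.0548). With neither addition ERBB2 measured 71.3 and 88.9 CPM against 74.1 and 111 CPM, and with ATRA 108, 82.6 and 107 CPM against 106, 105 and 125 CPM. The exposures overlapped in both of these treatments, and no call was made.

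ERBB3, the receptor of neuregulin-1, was scarce. It measured 5.04 and 2.3 CPM in hyperoxia and 9.38 and 8.87 CPM in normoxia with vehicle. The ATRA libraries held 6.31, 5.36 and 5.67 CPM against 11.2, 7.18 and 9.63 CPM. With neither addition it measured 0.2 CPM (1 read, in the library that stood apart) and 4.23 CPM in hyperoxia, against 7.22 and 15.6 CPM in normoxia. All 7 hyperoxia libraries lay below all 7 normoxia libraries, but no comparison was called as fitted here: the edgeR adjusted p was 0.106 with vehicle and 0.0805 with neither addition (0.227 without the library that stood apart). With vehicle the log2 fold change of -1.34 (SE 0.551) passed with the vehicle groups fitted alone (edgeR adjusted p = 0.0331) and with vehicle and no-vehicle libraries joined (0.0312). Leaving out the first or second hyperoxia vehicle library moved it to -2 (edgeR adjusted p = 0.103) or -0.88 (0.544).

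Over both exposures and all treatments, 5 of the 10 genes separated the 7 hyperoxia from the 7 normoxia libraries without overlap (EREG, TGFA, NRG1 and EGFR upward, ERBB3 downward), where 13.7% of 15339 genes did so. Without the library that stood apart the same 5 genes did, where 17.4% of genes did so. NRG1 was thus higher in hyperoxia in every treatment, and its receptor ERBB3 held lower values there, with calls in only some of the settings run.

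The inhibitor ERRFI1, which encodes MIG6, binds the EGFR kinase domain and is known as a feedback gene of the pathway. It measured 174 and 198 CPM in hyperoxia and 107 and 91.7 CPM in normoxia with vehicle, a log2 fold change of 0.92 (SE 0.184, edgeR adjusted p = 0.00118). With neither addition it measured 73.1 and 147 CPM against 133 and 112 CPM, and with ATRA 87.4, 104 and 128 CPM against 89.2, 115 and 82.8 CPM. The exposures overlapped in both of these treatments, and the 2 hyperoxia vehicle libraries held the highest levels of all 14. With vehicle and no-vehicle libraries joined as 1 control arm, the oxygen effect was 0.42 (edgeR adjusted p = 0.207). LRIG1, a membrane protein that promotes loss of ERBB receptors, measured 25.2 and 15.7 CPM against 16.3 and 8.51 CPM with vehicle, 6.59 and 15 CPM against 12.3 and 13.2 CPM with neither addition, and 12.4, 13.8 and 11.1 CPM against 10.7, 12.2 and 16.1 CPM with ATRA. The exposures overlapped in each treatment and LRIG1 was not called.

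**Figure D3:**
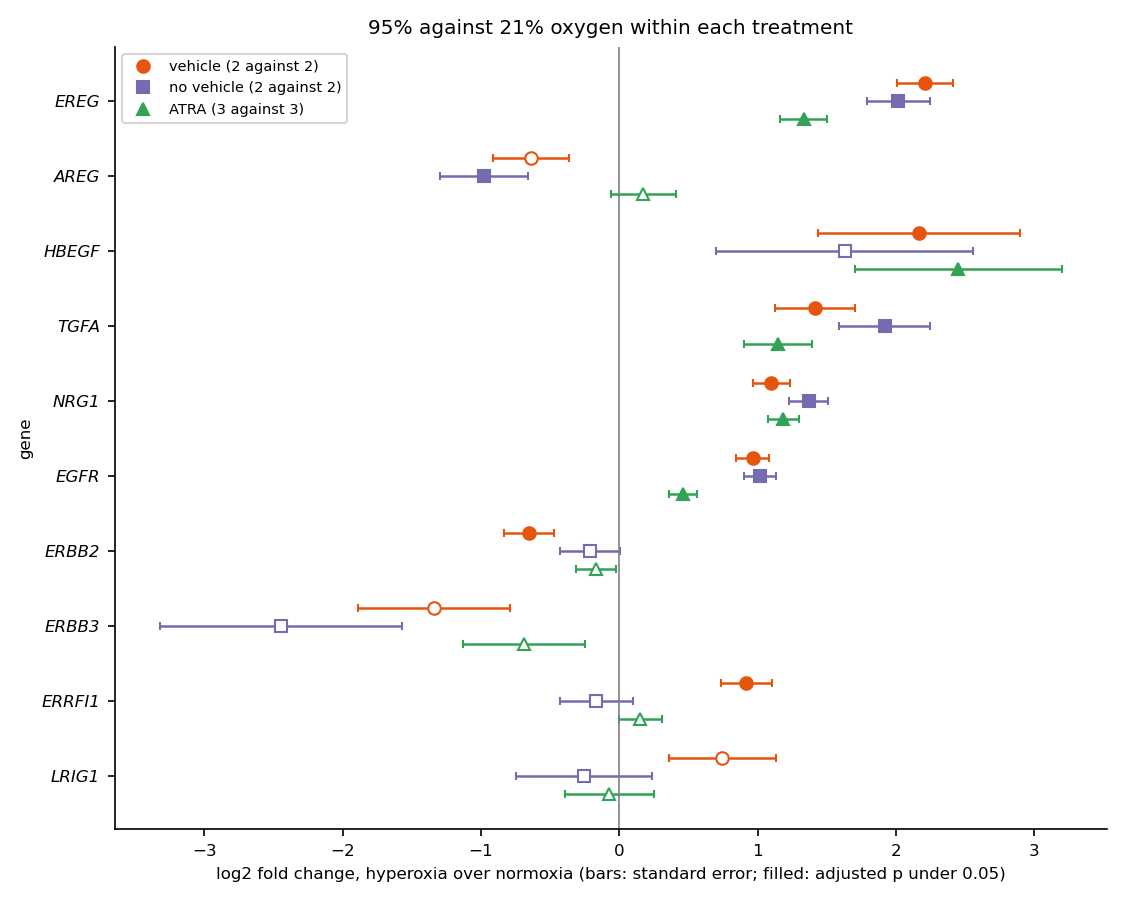
Log2 fold change of hyperoxia over normoxia (horizontal axis) for each gene (vertical axis) in cells with vehicle (circles), neither addition (squares) and ATRA (triangles). Bars are standard errors, and filled symbols passed an adjusted p of 0.05 by edgeR. EREG, TGFA, NRG1 and EGFR are filled and positive in all 3 treatments, and ERRFI1 only with vehicle.

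The no-vehicle comparison used 4 libraries that the vehicle comparison did not, fitted with all 14 libraries. In it 4 of the 10 genes were called higher (EREG, TGFA, NRG1 and EGFR), where 7.57% of 15339 genes were, and 1 was called lower (AREG), where 7.58% were. The median over all genes was -0.10 on the log2 scale in this comparison, so the fold changes stand slightly higher relative to the bulk of genes than as printed. Without the library that stood apart, the log2 fold change was 2.02 for EREG, 2.15 for TGFA, 1.34 for NRG1 and 1.07 for EGFR, and all 4 were called by edgeR, where 5.36% of 16503 genes were called higher. None was then called lower by edgeR, where 5.14% were, and 1, AREG, was lower at an unadjusted p under 0.05. EREG stayed called in each of the 9 alternative settings run. Fitted on the 4 libraries alone, TGFA (edgeR adjusted p = 0.134), NRG1 (0.0636) and EGFR (0.0758) did not pass. For ERBB3 DESeq2 made a call that edgeR did not, with an adjusted p of 0.0212. In edgeR ERBB3 was called in this comparison without the second hyperoxia library (adjusted p = 0.000126), which leaves the library that stood apart, at 1 read, alone in its group.

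With ATRA, 5 of the 10 genes were called higher (EREG, HBEGF, TGFA, NRG1 and EGFR), where 11.4% of genes were, and none was called lower by edgeR, where 11.3% were. At an unadjusted p under 0.05 none was lower either, where 2520 of the 14957 genes tested were, and DESeq2 also called 5 of the 10.

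Levels of different genes were compared per kilobase of transcript. With vehicle in hyperoxia the order was EGFR at 98.7 ± 2.57 CPM per kilobase (SD, n = 2), EREG at 84.1 ± 0.349, ERRFI1 at 60.2 ± 5.54, NRG1 at 32.1 ± 0.439 and AREG at 26.1 ± 1.69. ERBB2 (14 ± 2.92), TGFA (9.93 ± 0.34), HBEGF (5.97 ± 0.931), LRIG1 (3.81 ± 1.25) and ERBB3 (0.653 ± 0.345) followed on the same scale. The 2 libraries of each gene did not overlap those of its neighbours in that order. With vehicle in normoxia EGFR led at 50.7 ± 3.92 CPM per kilobase, followed by AREG at 41 ± 12.5, ERRFI1 at 32 ± 3.43, ERBB2 at 22.3 ± 1.94 and EREG at 18.2 ± 1.06. NRG1 (15 ± 1.34), TGFA (3.73 ± 0.097), LRIG1 (2.32 ± 1.03), ERBB3 (1.63 ± 0.065) and HBEGF (1.3 ± 0.177) were lower. EGFR and AREG, AREG and ERRFI1, and LRIG1 and ERBB3 overlapped in that order. EREG thus stood below ERBB2 in normoxia and next to EGFR in hyperoxia.

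The comparison of ATRA with vehicle asked which of these levels the retinoid moved. In hyperoxia ATRA lowered EREG 2.27-fold, ERRFI1 1.75-fold and EGFR 1.35-fold. These 3 of the 10 genes were called lower, where 0.695% of the 14957 genes were, and none was called higher by edgeR, where 1.52% were. At an unadjusted p under 0.05 there was 1 higher, ERBB2, where 1094 of the 14957 genes were. The comparison shares the 2 hyperoxia vehicle libraries with the oxygen comparison above, so a high value in those libraries enters both. The EREG log2 fold change was -1.19 (SE 0.178, adjusted p = 0.000422), with 144, 140 and 227 CPM against 387 and 389 CPM and no overlap. Against the hyperoxia libraries with neither addition (342 and 345 CPM) it was -1.01 (SE 0.206, adjusted p = 0.0448), where 0.17% of 15339 genes were called lower by edgeR. That call was lost without the library that stood apart, at -1.02 (SE 0.237, edgeR adjusted p = 0.0614), where 0.0606% of 16503 genes were called lower.

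ERRFI1 changed by -0.81 (SE 0.167, edgeR adjusted p = 0.00796) against vehicle, with 87.4, 104 and 128 CPM against 174 and 198 CPM. Against the hyperoxia libraries with neither addition it changed by -0.04 (SE 0.243, edgeR adjusted p = 0.943), the ATRA libraries lying within their range of 73.1 to 147 CPM. Without the library that stood apart the change was -0.47 (SE 0.217, edgeR adjusted p = 0.787). It also failed to pass without the second hyperoxia vehicle library (-0.72, edgeR adjusted p = 0.185) and in the fit of 14 libraries (0.193).

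EGFR changed by -0.44 (SE 0.11, edgeR adjusted p = 0.0346), with 691, 745 and 732 CPM against 960 and 996 CPM. Its 3 ATRA libraries lay below all 4 hyperoxia libraries without ATRA. The EGFR call was nevertheless lost in 10 of 19 alternative settings, with edgeR adjusted p up to 0.351 without the second hyperoxia vehicle library, 0.25 without the first, and 0.111, 0.0586 and 0.0569 without the first, the second and the third hyperoxia ATRA library. Without the second normoxia vehicle library the edgeR adjusted p was 0.0523. Against the libraries with neither addition the change was -0.30 (SE 0.104, edgeR adjusted p = 0.199), and -0.36 (SE 0.146, edgeR adjusted p = 0.664) without the library that stood apart.

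NRG1, HBEGF and TGFA held lower values with ATRA than with vehicle in hyperoxia without passing the test. NRG1 measured 323, 295 and 305 CPM against 389 and 381 CPM (log2 fold change -0.32, SE 0.121, edgeR adjusted p = 0.206), and HBEGF 7.39, 2.68 and 4.72 CPM against 15.6 and 12.5 CPM (-1.47, SE 0.636, edgeR adjusted p = 0.289). TGFA measured 24.9 to 30.7 CPM against 39.9 to 41.9 CPM (edgeR adjusted p = 0.372). Against the hyperoxia libraries with neither addition the log2 fold change of HBEGF was -0.10 (SE 0.813, edgeR adjusted p = 0.954), with 3.99 and 6.84 CPM in those libraries, which overlapped the ATRA libraries. It was -0.37 (SE 0.128, edgeR adjusted p = 0.202) for NRG1 and -0.64 (SE 0.293, edgeR adjusted p = 0.279) for TGFA. Without the library that stood apart none of the 3 passed either (edgeR adjusted p between 0.554 and 0.975). AREG measured 27.9 to 38.3 CPM against 30.7 and 33.7 CPM with vehicle, a log2 fold change of 0.01 (SE 0.255, edgeR adjusted p = 0.996). It was the 1 member whose ATRA and vehicle libraries overlapped in hyperoxia. The other 9 did not overlap, 3 libraries against 2, where 30.5% of 15339 genes did not. Of these 9, ERBB2 and ERBB3 held higher values with ATRA. ERBB3 measured 6.31, 5.36 and 5.67 CPM against 5.04 and 2.3 CPM, and did not pass (edgeR adjusted p = 0.616). LRIG1 held lower values, at 12.4, 13.8 and 11.1 CPM against 25.2 and 15.7 CPM (edgeR adjusted p = 0.374). Against the libraries with neither addition ERBB3 (1.48, edgeR adjusted p = 0.37) and LRIG1 (0.22, 0.809) did not pass either. Without the library that stood apart ERBB3 was at 0.45 (edgeR adjusted p = 0.968) and LRIG1 turned to -0.28 (0.97). ERBB2 measured 108, 82.6 and 107 CPM against 54.6 and 73.4 CPM with vehicle. Its log2 fold change of 0.63 (SE 0.167) had an edgeR adjusted p of 0.0506 and passed with DESeq2 (0.016), with RLE size factors (0.0456) and without the filter on low counts (0.0149). Against the libraries with neither addition it was 0.32 (SE 0.2, edgeR adjusted p = 0.409), and 0.16 (SE 0.234, edgeR adjusted p = 0.966) without the library that stood apart.

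**Figure D4:**
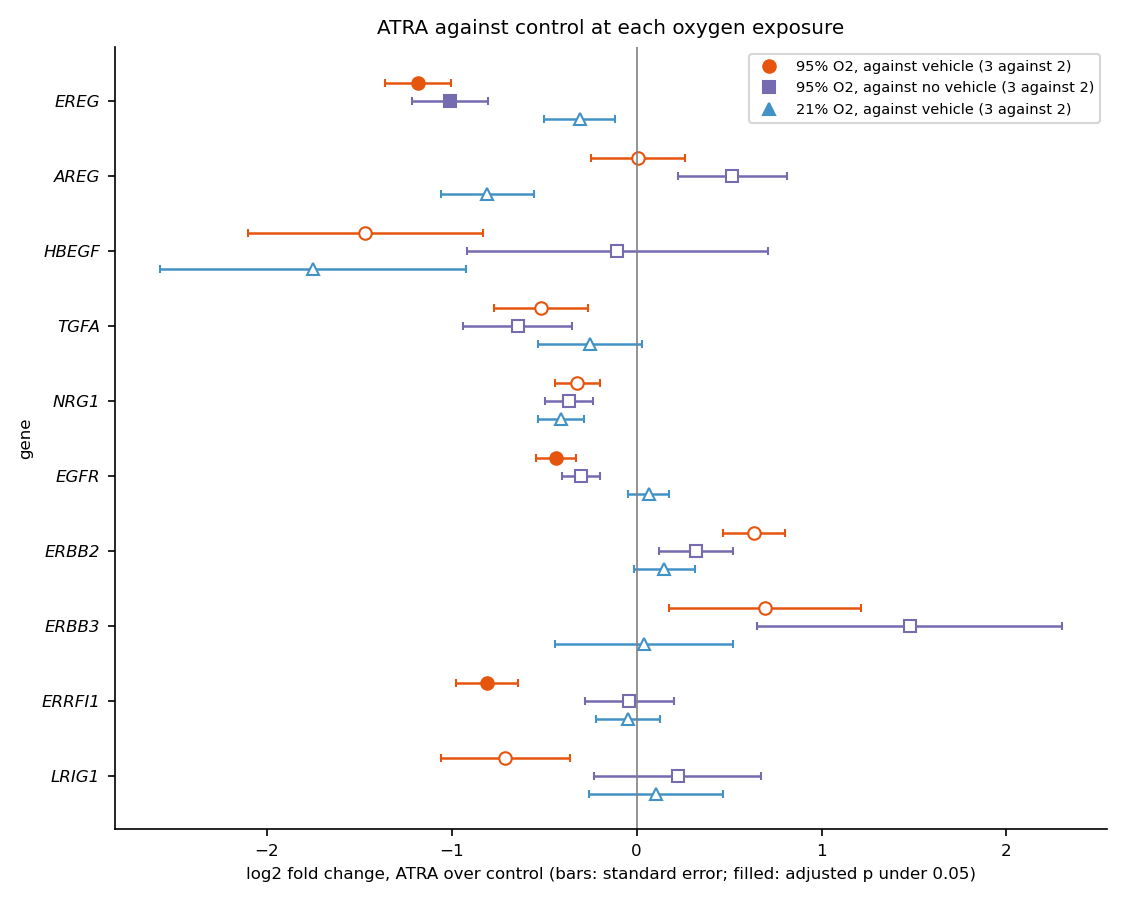
Log2 fold change of ATRA over control (horizontal axis) for each gene (vertical axis), in hyperoxia against vehicle (circles), in hyperoxia against libraries with neither addition (squares) and in normoxia against vehicle (triangles). Bars are standard errors, and filled symbols passed an adjusted p of 0.05 by edgeR. EREG is filled against both hyperoxia controls (against neither addition the call was lost without the library that stood apart), ERRFI1 and EGFR against vehicle only, and no gene in normoxia.

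In normoxia none of the 10 genes was called by edgeR in either direction, where 0.816% of genes were called higher and 0.435% lower. At an unadjusted p under 0.05 there were 3, all lower with ATRA, where 575 of the 14957 genes tested were lower and 740 higher. AREG measured 21.1, 26.8 and 37.7 CPM against 61.5 and 39.7 CPM (log2 fold change -0.81, SE 0.254, edgeR adjusted p = 0.172). NRG1 measured 146, 141 and 119 CPM against 192 and 169 CPM (-0.41, SE 0.126, edgeR adjusted p = 0.158), and HBEGF 1.04, 0 and 1.56 CPM against 2.78 and 3.37 CPM (-1.75, SE 0.827, edgeR adjusted p = 0.51). For these 3 of the 10 genes the ATRA and vehicle libraries did not overlap, where 27.5% of 15339 genes did not. Against the normoxia libraries with neither addition the log2 fold change was -0.64 (SE 0.286, edgeR adjusted p = 0.909) for AREG, -0.18 (SE 0.132, edgeR adjusted p = 1) for NRG1 and -0.92 (SE 0.946, edgeR adjusted p = 1) for HBEGF. DESeq2 called 1 of the 10, NRG1 (DESeq2 adjusted p = 0.0497).

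Whether the ATRA effect differed between oxygen exposures was tested as an interaction. None of the 10 genes was called by edgeR, where 0.14% of genes were, that is 21 of 14957. The log2 difference was -0.88 (SE 0.264, edgeR adjusted p = 0.346) for EREG, -0.50 (SE 0.156, edgeR adjusted p = 0.354) for EGFR and -0.76 (SE 0.24, edgeR adjusted p = 0.361) for ERRFI1. With no-vehicle libraries as controls the ERRFI1 difference turned to 0.32 (SE 0.343, edgeR adjusted p = 0.79). These controls included the library that stood apart, and the difference was not fitted without it. Against no-vehicle controls ERRFI1 changed with ATRA by -0.47 in hyperoxia without that library, and by -0.36 in normoxia. For AREG the log2 difference with vehicle controls was 0.81 (SE 0.36, edgeR adjusted p = 0.639). These 4 of the 10 genes had an unadjusted p under 0.05, where 1078 of the 14957 genes tested did. DESeq2 called 2 of these 4 members, EREG (DESeq2 adjusted p = 0.0483) and EGFR (0.00549). EREG also passed in edgeR without the third hyperoxia ATRA library, at -1.14 (edgeR adjusted p = 0.0474), that library being the one at 227 CPM. Without the filter on low counts EREG passed as well (edgeR adjusted p = 0.0129). A smaller oxygen response of EREG with ATRA than with vehicle therefore depended on the test, the filter and the libraries used.

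The rest of the pathway was followed through 55 tested genes in 7 lists. With vehicle 15 of the 55 were called higher in hyperoxia and 5 lower, and their log2 fold changes had a median of 0.50, where all genes had 0.01. With ATRA 18 were higher and 3 lower (median 0.26), and with neither addition 10 were higher and 3 lower (median 0.14, against -0.10 over all genes). Without the library that stood apart 11 of 56 tested were higher and 1 lower with neither addition (median 0.23, against -0.03 over all genes). The shares of all genes called in these comparisons are those given above. Against vehicle, ATRA lowered 2 of the 55, SHC1 and IER3, at each oxygen exposure, and raised 1, EMP1, in normoxia. Neither SHC1 (-0.459, edgeR adjusted p = 0.552) nor IER3 (-0.715, 0.448) passed in hyperoxia against neither addition, less the library that stood apart.

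Among genes of ligand release (ADAM17, ADAM10, RHBDF1 and RHBDF2), 2 of 4 were called higher with vehicle. They were the iRhom genes RHBDF1 (log2 fold change 1.37, SE 0.296, edgeR adjusted p = 0.00222) and RHBDF2 (0.79, SE 0.23, edgeR adjusted p = 0.0187), whose products escort ADAM17 to the cell surface. RHBDF2 was also called with ATRA (0.89, SE 0.188, edgeR adjusted p = 0.00158) and both with neither addition (RHBDF1 2.17 and RHBDF2 1.38). RHBDF1 measured 72.1 CPM in the library that stood apart and 24.4 CPM in its partner. Without that library both were called, at 1.175 (edgeR adjusted p = 0.0333) for RHBDF1 and 1.187 (0.00881) for RHBDF2. The proteases ADAM17 and ADAM10 were not called in any treatment. Of the other family members (EGF, BTC, EPGN, NRG2, NRG3, NRG4 and ERBB4), 3 passed the filter on low counts and 1, the ERBB4 ligand gene NRG4, was called higher, at 0.68 (SE 0.222, edgeR adjusted p = 0.0384) with vehicle and 0.62 with ATRA. With neither addition NRG4 was at 0.11 (SE 0.251, edgeR adjusted p = 0.796), and at -0.13 (0.847) without the library that stood apart. ERBB4 had at most 4 reads in any library.

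In receptor turnover (CBL, CBLB, LRIG2, LRIG3, RNF41, USP8 and PTPN1), 1 of 7 genes was called with vehicle. It was CBLB, a ubiquitin ligase gene, lower at -1.34 (SE 0.387, edgeR adjusted p = 0.0185). It was not called with ATRA (-0.42, SE 0.3, edgeR adjusted p = 0.341) or with neither addition (-0.11, SE 0.438, edgeR adjusted p = 0.889; -0.62 and 0.483 without the library that stood apart). Among 13 adaptors and RAS-ERK kinases (GRB2, SHC1, SOS1, SOS2, GAB1, PTPN11, HRAS, NRAS, ARAF, BRAF, MAP2K1, MAP2K2 and MAPK3), 3 were higher with vehicle and none lower by edgeR. SHC1, an adaptor that docks on activated receptors, rose by 0.87 (SE 0.131, edgeR adjusted p = 5.78e-05), and MAP2K2, an ERK-activating kinase, by 0.77 (SE 0.149, edgeR adjusted p = 0.000832). MAP2K1 rose by 0.75 (SE 0.189, edgeR adjusted p = 0.00781) and was not called with ATRA (0.43, edgeR adjusted p = 0.0536). With neither addition MAP2K1 was not called when the library that stood apart was left out (0.41, edgeR adjusted p = 0.329). With vehicle SHC1 averaged 560 ± 27.8 CPM (SD, n = 2) at 95% oxygen, compared with 306 ± 7.14 CPM (SD, n = 2) at 21%. With ATRA in hyperoxia it was lower, at 393 ± 44.4 CPM (SD, n = 3; log2 fold change -0.51, SE 0.119, edgeR adjusted p = 0.0199). SHC1 and MAP2K2 were higher in hyperoxia with ATRA as well (0.90 and 0.83) and with neither addition (1.03 and 1.12, or 1.029 and 1.196 without the library that stood apart, all called).

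The PI3K-AKT, PLC and STAT list (PIK3CA, PIK3CB, PIK3R1, PIK3R2, AKT1, AKT2, PLCG1 and STAT3) moved in both directions with vehicle, with 1 of 8 higher and 3 lower. STAT3, a transcription factor gene, rose by 0.67 (SE 0.134, edgeR adjusted p = 0.0012). PIK3R2 changed by -0.78 (SE 0.234, edgeR adjusted p = 0.0232) and PIK3CB, a catalytic subunit gene of PI3K, by -0.73 (SE 0.249, edgeR adjusted p = 0.0483). AKT1 changed by -0.56 (SE 0.155, edgeR adjusted p = 0.0141). STAT3, PIK3R2 and PIK3CB were called in the same directions with ATRA and with neither addition. AKT1 was not called with ATRA (-0.16, edgeR adjusted p = 0.41). Nor was AKT1 called with neither addition when the library that stood apart was left out (-0.35, edgeR adjusted p = 0.321). Without the library that stood apart the PIK3R2 call with neither addition was lost (-0.57, edgeR adjusted p = 0.264), and STAT3 (0.83) and PIK3CB (-1.25) were called.

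Genes that ERK signalling is known to induce were followed in 2 lists. Of PHLDA1, SPRY2, SPRY4, DUSP4, DUSP6, CCND1, EPHA2, EPHA4, ETV4 and ETV5, 3 were higher and 1 lower with vehicle. EPHA2, an ephrin receptor gene, rose by 1.01 (SE 0.153, edgeR adjusted p = 6.14e-05), PHLDA1 by 0.55 (SE 0.164, edgeR adjusted p = 0.0214) and the cyclin gene CCND1 by 0.51 (SE 0.129, edgeR adjusted p = 0.00798). DUSP4, a phosphatase of ERK, changed by -0.57 (SE 0.151, edgeR adjusted p = 0.0105). EPHA2 was called higher with ATRA (0.96) and with neither addition (1.37, and 1.35 without the library that stood apart). CCND1 was called with ATRA (0.99) and not with neither addition (0.25, edgeR adjusted p = 0.211). PHLDA1 was called in neither, at -0.07 with ATRA and 0.06 with neither addition, or 0.61 (edgeR adjusted p = 0.0515) without the library that stood apart. DUSP4 was at -0.10 (edgeR adjusted p = 0.608) with ATRA and called with neither addition (-0.47, edgeR adjusted p = 0.0494), a call lost without that library (0.089). Of DUSP5, SPRY1, SPRED1, SPRED2, FOSL1, FOS, EGR1, IER3, MYC and EMP1, 5 were higher and none lower with vehicle by edgeR. In this list 5 were higher and 1 lower with ATRA, and 1 was higher with neither addition, or 3 without the library that stood apart.

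FOSL1, which encodes the AP-1 subunit FRA-1, had a mean with vehicle of 205 ± 5.92 CPM (SD, n = 2) at 95% oxygen, compared with 31.4 ± 5.75 CPM (SD, n = 2) at 21%. Its log2 fold change was 2.73 (SE 0.2, edgeR adjusted p = 7.72e-09). It was 2.82 with ATRA and 2.96 with neither addition (3.13 without the library that stood apart), so FOSL1 was higher in all 3 treatments. EGR1 averaged 8.43 ± 1.81 CPM (SD, n = 2) against 0.262 ± 0.12 CPM (SD, n = 2) with vehicle and was called (edgeR adjusted p = 0.00819), with at most 55 reads in a library. It was also called with ATRA (edgeR adjusted p = 0.0487). It was not called with neither addition (0.226), but was without the library that stood apart (0.0434). DUSP5 rose by 0.72 (SE 0.22, edgeR adjusted p = 0.0269) and IER3 by 0.61 (SE 0.204, edgeR adjusted p = 0.0425). DUSP5 was not called with ATRA (0.44, edgeR adjusted p = 0.0883) or with neither addition (0.16, edgeR adjusted p = 0.695). IER3 was called with ATRA (0.75). It was not called with neither addition (edgeR adjusted p = 0.0983), but was without that library (0.0371). IER3 averaged 59.7 ± 12.4 CPM (SD, n = 3) with ATRA in hyperoxia against 96.9 ± 1.69 CPM (SD, n = 2) for vehicle, and the log2 fold change was -0.71 (SE 0.186, edgeR adjusted p = 0.0453).

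**Figure D5:**
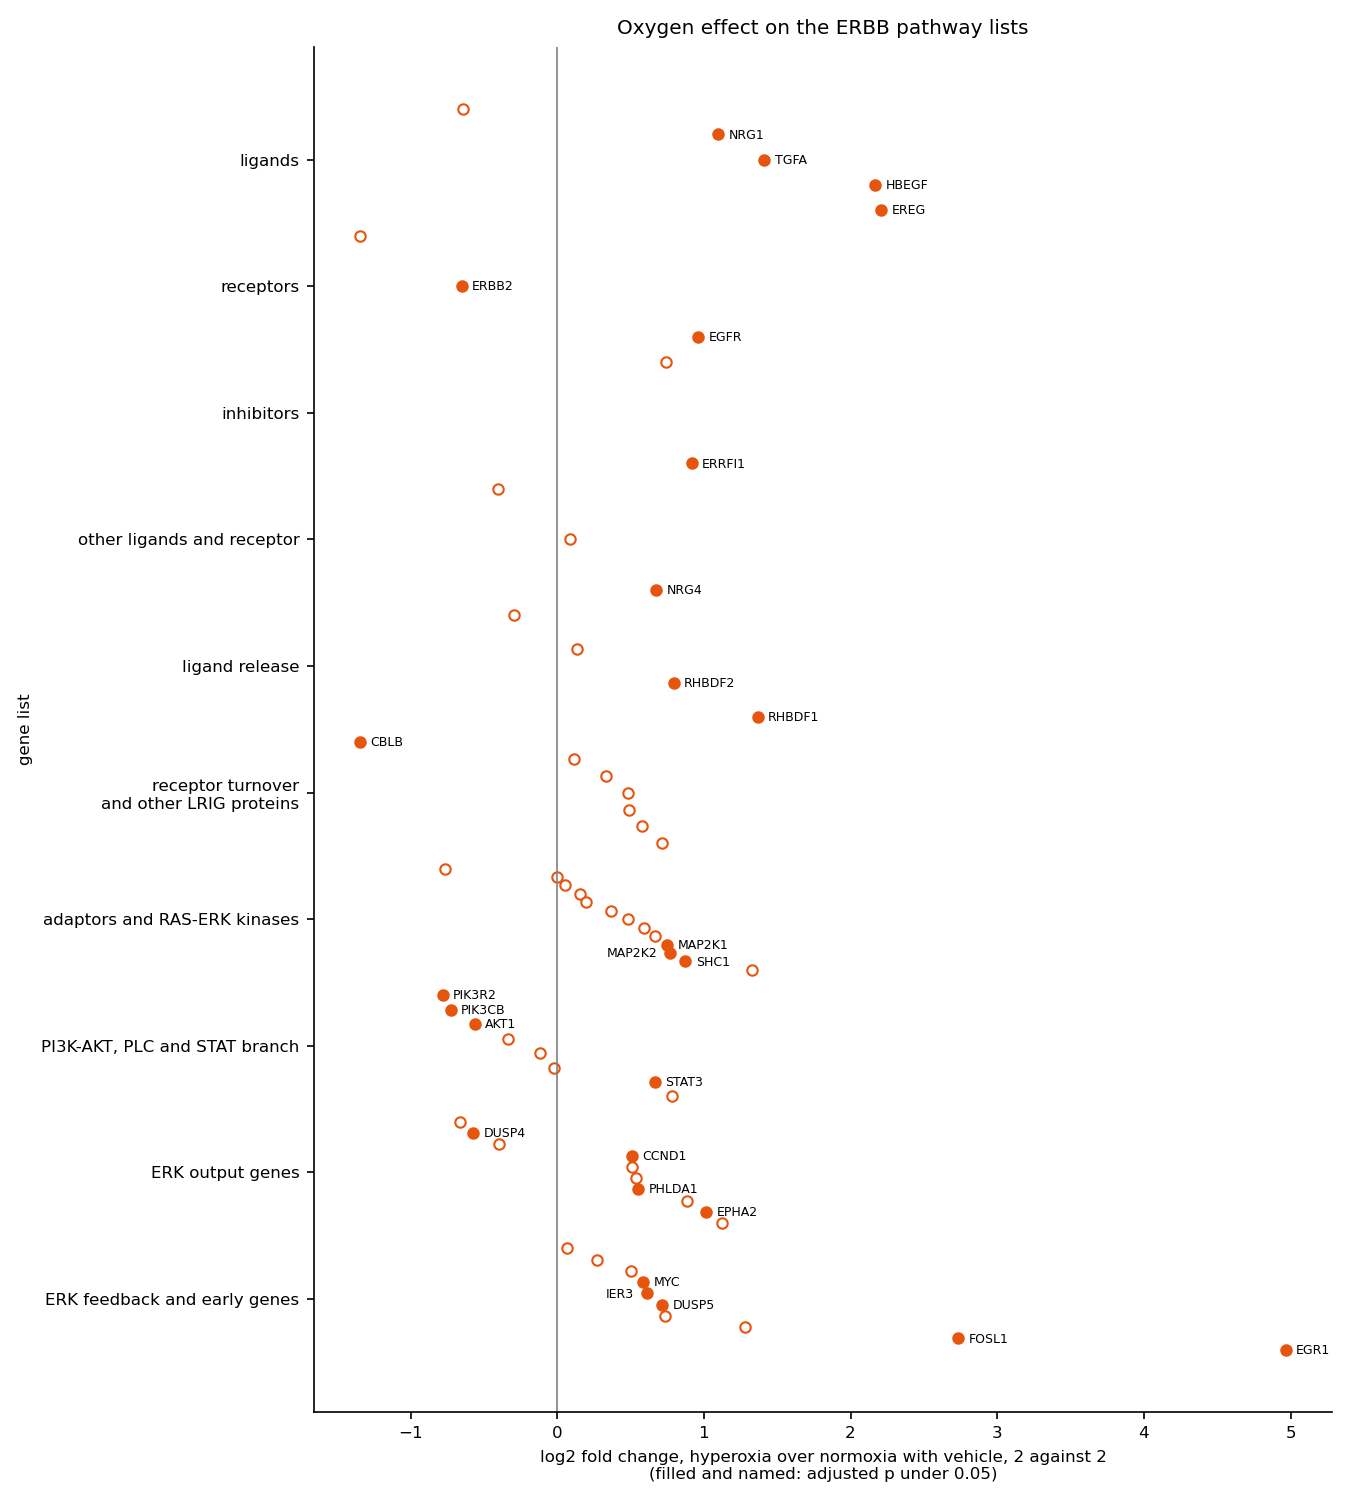
Log2 fold change of hyperoxia over normoxia with vehicle (horizontal axis) for the genes of each list (vertical axis). Each point is a gene, and filled, named points passed an adjusted p of 0.05 by edgeR. EREG, HBEGF and FOSL1 stand above 2 on the log2 scale, as does EGR1, which had few reads.

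The genes whose pattern over the 14 libraries was most like that of EREG were named by the root-mean-square difference of mean-centred log2 CPM over 15338 genes. They were ETS1 (0.221), TLE4 (0.236), PTGR1 (0.259), FRMD6 (0.296) and NCEH1 (0.305), where the median gene differed by 1.15. Over the 13 libraries without the one that stood apart, 4 of these 5 genes were again among the nearest 5, and GEM (0.262) took the place of FRMD6. ETS1, a transcription factor gene, averaged 156 CPM in hyperoxia with vehicle, 74 CPM in hyperoxia with ATRA and 30.3 CPM in normoxia with vehicle. TGFA ranked 14 and NRG1 ranked 45 by this measure, while AREG ranked 9115.

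The other genes lie, in RefSeq on GRCh38.p14, on chromosome 2 from 70447284 to 70553826 (TGFA), chromosome 5 from 140332843 to 140346603 (HBEGF), chromosome 7 from 55019017 to 55211628 (EGFR) and chromosome 17 from 39688094 to 39728658 (ERBB2). ERBB3 lies on chromosome 12 from 56080108 to 56103505, ERRFI1 on chromosome 1 from 8011727 to 8026309 and LRIG1 on chromosome 3 from 66378797 to 66501121. All 10 genes are protein-coding. Some of them share their position with other genes. ERBB2 and MIEN1 lie on opposite strands and overlap by 149 bases at their ends, and MIEN1 had 49.1% as many reads as ERBB2. LRIG1 and SLC25A26 likewise overlap by 131 bases, with 98.2% as many reads for SLC25A26. EGFR-AS1, antisense within EGFR, had 5.69% as many reads as EGFR. The strand setting of the counting was not given in the sources used here, although the library kit preserves strand.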

How the data were processed

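RNA-seq was measured in 15 libraries of A549 cells, of which 14 had a group. The other library was left out of every comparison because its title names hyperoxia and its treatment label names adipogenic differentiation. Per the labels and methods, the authors used Trimmomatic 0.38 for trimming, HISAT2 for alignment (hg38) and HTSeq for counting; the deposited values are raw counts, and the strand setting and annotation are not given in the sources used here. Rows that name no gene were removed, of which reads outside genes made up 48.6% to 55.3% of each library. Genes passing filterByExpr (minimum count 10, minimum total 15) were normalised by TMM and tested by edgeR 4.0.16 (R 4.3.3) with the quasi-likelihood test. The 10 vehicle and ATRA libraries were fitted as 4 groups (14957 genes), and the no-vehicle comparison and the alternative with no-vehicle controls used 14 libraries in 6 groups (15339 genes). Standard errors came from the fitted model. Adjusted p-values are Benjamini-Hochberg over all genes tested, and CPM values were scaled by TMM over 14 libraries. Alternatives included DESeq2 1.42.0, RLE size factors, no filter, other sets of libraries and leaving out each library. The scripts were tested on simulated data. Levels per kilobase used 1 canonical GENCODE transcript a gene. Coordinates and promoter windows are RefSeq, GRCh38.p14, the build of the files. The 10 genes and all lists were chosen with earlier results of these data known. All 10 genes are named. Pathway genes are named with values up to 4 a list (those called for oxygen with vehicle with the largest change). Pathway genes called only in other comparisons were counted but given no values. Fold changes are printed for members with an unadjusted p under 0.05, plus those called in another arm and LRIG1 with neither addition. Those of ERBB3 and LRIG1 for ATRA against neither addition in hyperoxia are printed as well. This choice of fold changes was made after the values were seen. Some genes of the pathway lists are not reported here, and counts over the lists leave them out.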

Additional observations from a re-analysis of the deposited data

How the results depend on the processing

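Over the 36 fitted results for single members, 550 alternative values were computed, of which 491 kept direction and side of the threshold, 37 lost the call, 18 gained one and 4 reversed. Of the 20 results called, 9 kept the call in all settings run and none reversed. The 36 results were those with an unadjusted p under 0.05, plus ERBB2, ERRFI1 and LRIG1 with neither addition. Other fitted results of the members are not in this tally. The causes of the changes were not tested.

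The count of genes called for oxygen with vehicle (2616) was 1420 with 14 libraries in 6 groups, 4665 with the compared groups alone and 1386 to 3175 with 1 library left out. With ATRA (3391) it was 1975 with 14 libraries. For ATRA in hyperoxia (331) it was 522 without the filter, 116 with 14 libraries, 182 with 1 joined control arm, 66 with no-vehicle controls, 29 with those controls less the library that stood apart (a setting chosen after seeing the data) and 83 to 449 with 1 library left out. For ATRA in normoxia (187) it was 286 with DESeq2, 300 without the filter, 70 with 14 libraries, 67 with no-vehicle controls and 56 to 267 with 1 left out. The interaction (21) gave 96 with DESeq2, 91 without the filter, 4 with 14 libraries, 5 with the joined arm, 3 with no-vehicle controls and 4 to 28 with 1 left out. With neither addition (2324) it was 58 with the compared groups alone and 969 to 7364 with 1 left out, the highest without the second hyperoxia library, which leaves the library that stood apart alone in its group; a lone library was assumed to vary like the others.

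Members called for ATRA in hyperoxia (3) fell to 1 with 14 libraries, the joined arm or no-vehicle controls. All calls were lost in edgeR with no-vehicle controls less the library that stood apart, and their number moved with 1 library left out. In normoxia (0) DESeq2 called 1. For the interaction (0) DESeq2 called 2, no filter 1 and leaving out 1 library 0 to 1. With neither addition (5), the compared groups alone gave 1.

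The ERRFI1 interaction reversed to 0.318 with no-vehicle controls, which included the library that stood apart. With neither addition, leaving out 1 library moved ERBB2 between -0.518 and 0.069, ERRFI1 between -0.801 and 0.26 and LRIG1 between -1.002 and 0.231; the last 2 turned positive without the library that stood apart, and ERRFI1 was called lower (edgeR adjusted p = 0.00829) with that library alone. No paired analysis was possible because the labels give no replicate numbers shared between groups. At 0 to 71 reads for HBEGF and 1 to 65 for ERBB3, depth limits these genes most.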

Other observations

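The library with conflicting labels, which belongs to no group, held 4415705 reads on genes. Scaled by total reads, it measured 406 CPM for EREG, where the 7 hyperoxia libraries ranged from 139 to 400 CPM and the 7 normoxia libraries from 54.4 to 95.8 CPM. TGFA was at 40.8 CPM, NRG1 at 364 CPM, EGFR at 873 CPM and ERRFI1 at 202 CPM. AREG was at 32.4 CPM, HBEGF at 12.5 CPM, ERBB2 at 78.8 CPM, ERBB3 at 5.44 CPM and LRIG1 at 12.9 CPM. These are values of 1 library with no test.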
